A study of Rattus norvegicus with 2 samples.

Results

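The proteins of the cytosolic ribosome were followed, probe by probe, on a pair of rat arrays. Members were taken by name: every probe outside the controls whose RefSeq accession maps to a rat symbol of the form Rpl or Rps plus a number, with Rplp0, Rplp1, Rplp2 and Rpsa, and without the Rps6k kinases. This gave 143 of 30359 probes and 82 of 15164 genes. Of these, 130 probes belonged to 73 main members, the proteins of the ribosome itself, and 13 probes to 9 genes named as copies or relatives of a main member. The RefSeq table lists 77 main members, of which 73 had a probe by accession.

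The arrays read primary dental papilla cells, the mesenchymal cells of the tooth germ from which dentin-forming odontoblasts arise. The study asked how melatonin, the pineal hormone, alters their transcripts while they are pushed toward odontoblasts. Both groups came from rats of postnatal day 1 to 3 and were used at passage 3 to 4. Both were held for 3 days in the induction medium called OS, with 8% serum, ascorbic acid (0.2 mM), β-glycerophosphate (10 mM) and dexamethasone (0.1 mM), and differed by 10 nM melatonin, present in 1 group and absent from the other. The labels give no strain and no sex. The titles of both samples close with an unexplained count, and the labels do not say whether a culture or a pool was read. Each group holds 1 array. No value below has a replicate error between cultures, no test between the groups was possible, and every ratio compares these 2 arrays.

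The label of the cells was set against marker genes. All 11 papilla mesenchyme markers on the array were well above background on both arrays, among them Col1a1 at 7.03 (OS) and 7.31 (melatonin) on the scaled log2 scale. Their median log2 ratio was 0.02, and 1 of them, Thy1 at -0.68, was at least 1.5-fold lower with melatonin. The odontoblast genes Dspp and Dmp1 were above background on neither array, and 0 of 6 epithelial markers were measured on both. Of 7 macrophage markers 5 were measured, all of them dim, among them Lyz2 at -0.33 (OS) and -2.80 (melatonin). Of these 5, 3 were at least 1.5-fold lower with melatonin, against 2.64% of all measured genes. The other 2, Csf1r and Aif1, had log2 ratios of 0.20 and 0.07, and 0 of the 5 reached 1.5-fold higher. The median macrophage log2 ratio was -0.61. Hbb, the 1 measured of 3 red cell markers, had a log2 ratio of -1.73. Actc1, the 1 measured of 4 muscle markers, had -0.60. The part of these cell types in the ribosomal protein ratios was not tested. In a bulk culture, fewer cells of a type and less RNA per cell cannot be told apart.

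The cytosolic ribosome has a large 60S and a small 40S subunit, each made of ribosomal RNA and of many proteins that are needed in matching amounts. The mRNAs of these proteins are among the most abundant in a growing cell, and they share a run of pyrimidines at the 5′ end (the TOP tract) through which mTOR signalling adjusts their translation together. Mammalian genomes also carry many processed copies of these genes, so a probe that carries a ribosomal protein's name can also bind RNA from a near-identical copy. Every gene value below is uncertain for that reason. The RefSeq table names between 1 and 36 copies for a main member, with a median of 15, and Rps2 has the most.

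The sequences around the annotated transcription starts are shown here because the TOP tract is what these genes hold in common beyond their names. They come from the RefSeq promoter table of build GRCr8, which holds 62 of the 77 main members. The array's own annotation is of build rn4, so these positions are those of GRCr8 alone. Each window is 30 bases long, 15 before the start and 15 from it onward, on the strand of the gene, with the longest unbroken run of C and T in capitals. The windows lie at chr10:14251833-14251862 (+ strand) for Rps2, chr2:23814502-23814531 (+) for Rps23, chrX:157205835-157205864 (+) for Rpl10, chr9:49143096-49143125 (+) for Rpl31, chr12:46718376-46718405 (- strand) for Rplp0, chr1:180009646-180009675 (-) for Rps13, chr1:89608673-89608702 (+) for Rps19 and chr5:153560788-153560817 (-) for Rpl11.
Rps2: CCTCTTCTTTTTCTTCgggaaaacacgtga
Rps23: tgggtccttcctgCCTCTCTTCTCTCTTTC
Rpl10: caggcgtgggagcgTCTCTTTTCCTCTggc
Rpl31: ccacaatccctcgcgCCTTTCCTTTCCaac
Rplp0: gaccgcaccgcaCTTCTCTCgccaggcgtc
Rps13: gccgtttcctacctcgTTCTCTCTTTgctt
Rps19: cccgacttgtgcgcccgggaaaCCCCgtcg
Rpl11: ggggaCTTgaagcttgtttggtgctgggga
In Rpl31 the run opens exactly at the annotated start, in Rps2 it ends there, and Rps19 and Rpl11 hold no long run in this window.

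The longest run of pyrimidines was searched on the strand of the gene only. It had a median length of 10 bases in the main members, against 4 over all 33469 promoters of the table. It reached 8 bases or more in 42 of the 62 members (67.7%), against 11.4% of all promoters. A C exactly at the annotated start, followed by 4 more pyrimidines, stood in 24 of the 62 (38.7%), against 2.63% of all promoters. A match describes these letters and not a working TOP tract, and a start annotated a few bases off moves it out of place. Gene ratios (melatonin over OS, log2) had like medians on both sides of a length of 8, 0.05 in the 40 measured genes with a run of 8 or more and 0.05 in the 19 with a shorter one.

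Signals below are the processed brightness of the probe. Ratios are log2 of the melatonin array over the OS array, after each array's log2 signals were set to their 75th percentile, which was 428 (OS) and 329 (melatonin) in brightness. A probe whose brightness was lower on the melatonin array in just that proportion therefore has a log2 ratio of 0. A probe is called measured when it was well above background on both arrays. Of the 130 main member probes 129 were measured, the exception being the fourth Rpl36a probe, at background on both arrays (17.3 and 7.85). The measured ones ran from 78.3 to 106355 in brightness for OS and from 53.5 to 78154 for melatonin. Their medians were 23649 and 17637. Main members made up 61 of the 269 measured probes at a mean scaled log2 signal of 6 or above (22.7%).

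As a group, the main members had nearly the same level on both arrays. The median log2 ratio over the 73 genes was 0.05, against 0.04 over all 8231 measured genes, and the SD across genes was 0.29 in both sets. By the brightest probe of each gene the member median was 0.14, and with normexp background correction it was -0.0009, below the 0.09 of all genes. Of the 73, 42 had a log2 ratio above 0 (57.5%), against 57.6% of all measured genes. At 2-fold, 1 main member was higher with melatonin and 0 were lower, where the background was 0.255% higher and 0.705% lower. At 1.5-fold the counts were 1 higher and 2 lower, against backgrounds of 2.03% and 2.64%.

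The 3 genes past 1.5-fold were Rps20, Rpl7a and Rps25, and each was read by 1 probe on 1 spot. Rps20, a protein of the 40S head, had a brightness of 25913 (OS) and 44711 (melatonin), a log2 ratio of 1.17 or 2.25-fold higher. It was the only main member probe at least 2-fold higher, where 0.841% of all measured probes were. Rpl7a, a 60S protein, read 11969 (OS) and 4811 (melatonin), a log2 ratio of -0.93 or 1.91-fold lower. Rps25, which sits on the 40S head and is needed by some viral internal ribosome entry sites, read 5534 and 2238, a log2 ratio of -0.93 or 1.90-fold lower. With normexp background correction Rps20 stood at 0.96, short of 2-fold, while Rpl7a at -1.07 and Rps25 at -1.16 passed 2-fold. No other probe of these 3 genes exists here to set beside them.

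The 60S median lay near 0 and the 40S median somewhat above it. The 44 measured 60S genes had a median log2 ratio of -0.02, with 21 above 0 (47.7%). The 29 measured 40S genes had 0.13, with 21 above 0 (72.4%). Over all measured genes the share above 0 was 57.6%. With normexp background correction the 40S median was 0.06 and the 60S median -0.04, both below the 0.09 of all genes. Reading each gene by its brightest probe alone, in place of the mean of its probes, put the 60S median at 0.09 and the 40S median at 0.17. The 60S median was also at 0.0052 with quantile normalization and at 0.00 in the authors' values, so its sign changed between settings.

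Within the large subunit, the stalk that recruits translation factors was slightly below 0 in all 3 of its genes, though Rplp1 stood at 0.0042 with quantile normalization and at 0.00 in the authors' values. Rplp0, the base of the stalk, had a log2 ratio of -0.17, Rplp2 of -0.09 and Rplp1 of -0.05. The median SD between spots of a repeated probe, 0.16, is about the size of the largest of them. The 2 Rplp0 probes gave -0.14 and -0.19. In the authors' values the first of them stood at -0.81 and the second at -0.18, which put the gene at -0.50. Rplp1 read 36429 (OS) and 27038 (melatonin), and Rplp2 read 84759 and 61320.

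The partners of 5S rRNA were among the higher genes of the large subunit. Rpl11, which together with Rpl5 binds 5S rRNA and in its free form holds back the p53 ligase Mdm2, read 32670 (OS) and 35801 (melatonin), a log2 ratio of 0.51. Rpl5 read 12553 and 12396, a log2 ratio of 0.36. Each rests on 1 probe on 1 spot, and neither reached 1.5-fold. The 7 measured proteins around the exit of the peptide tunnel had a median of 0.01, from -0.23 (Rpl17) to 0.34 (Rpl19). The other 32 large subunit genes had a median of -0.02, with 15 above 0 and 17 below. Among these 32, Rpl27 at 0.49 and Rpl34 at 0.46 also stood above Rpl5. Rpl41, the smallest protein of the ribosome and here the member of highest mean signal, had a log2 ratio of 0.14. Rpl15, whose 10 spots make it the one repeated large subunit probe, had 0.28, with an SD of 0.15 between its spots.

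In the small subunit, 11 of the 13 measured proteins of the head had a log2 ratio above 0 (84.6%, against 57.6% of all measured genes), with a median of 0.15. Those below 0 were Rps25 and Rps18, the latter at -0.09. The 16 proteins of the body and platform had a median of 0.04, from -0.30 (Rps2) to 0.48 (Rps13). Rps6, the substrate of S6 kinase, averaged 0.04, but its 2 probes stood at -0.25 and 0.33. Rpsa, also known as the laminin receptor precursor, averaged 0.13, from probes at 0.34 and -0.08. Rps12, among the brightest members, gave 0.14 and 0.16. Rps26, the main member of lowest mean signal, read 598 (OS) and 442 (melatonin), a log2 ratio of -0.05. The 10 spots of Rps4x gave -0.04, with an SD of 0.10 between spots.

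Some ribosomal proteins are made as fusions with ubiquitin or a ubiquitin-like protein. Rps27a, fused to ubiquitin, averaged a log2 ratio of 0.32. Fau, the fusion that gives S30, had 0.05 from 3 probes that lay between 0.02 and 0.08. Rack1, a scaffold protein bound to the 40S head, had 0.16.

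**Figure D1:**
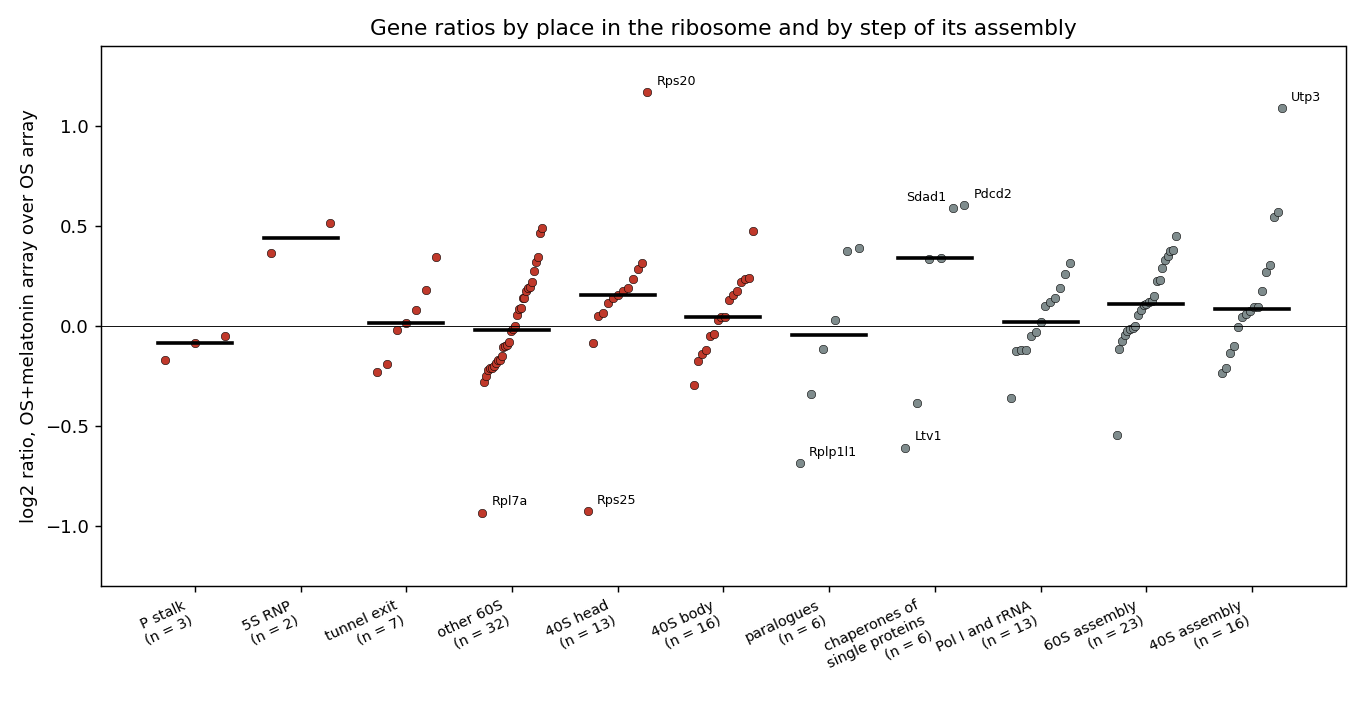
Log2 ratio of the OS+melatonin array over the OS array (vertical axis) for each measured gene (1 point a gene, bars at the group median), by place in the ribosome (red) and by paralogue group or step of ribosome assembly (grey). The group medians run from -0.09 (P stalk) to 0.44 (5S RNP), and Rps20, Rpl7a and Rps25 stand apart from the rest of their groups.

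The groups by place in the ribosome were drawn up after values had been seen, and they describe these arrays only. In the plot of gene ratios by place, most groups are centred near 0 and overlap each other over nearly their whole range. The 5S RNP group, with 2 genes, is the one whose points all lie above 0.3.

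The probes of a gene often gave different answers. Of the 73 main members, 29 had 1 measured probe, 34 had 2, 8 had 3 and 2 had 4. Among the 44 with more than 1, the probes lay on both sides of 0 in 23 genes (52.3%). That share was 46.4% over all 1124 genes with 2 or more measured probes and 46.1% over the 1078 that are no members. These shares were not matched on the number of probes, and more probes make mixed signs likelier. Exactly 2 probes were held by 34 of the 44 members and by 1007 of the 1078 other genes.

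The size of the disagreement stood further from the background. The range between the highest and the lowest log2 ratio of a gene's probes had a median of 0.36 in the 44 members, with quartiles of 0.16 and 0.66, against 0.22 in the other genes, with quartiles of 0.11 and 0.40. It reached 1.5-fold in 13 of 44 members (29.5%), against 13.3% over all genes with 2 or more measured probes and 12.5% over the other genes. It reached 2-fold in 5 members (11.4%) and in 25 of the other genes (2.32%). No test was run on this difference, because the probes share the same 2 arrays. The shares at 1.5-fold and 2-fold were not matched on the number of probes, and members more often had over 2.

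The range of the members was also wider in genes with the same number of probes or with single spots. With exactly 2 probes, the median range was 0.34 in 34 members and 0.22 in 1007 other genes. With every probe on 1 spot, it was 0.36 in 44 members and 0.23 in 927 other genes. The comparison was not matched on signal, and members are the brighter set. Where both the brightest and the dimmest probe had a mean scaled log2 signal of 3 or above, their median absolute difference was 0.34 in 40 members and 0.23 in 52 other genes.

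Spot error gives a scale for these ranges. Over 1033 probes with 8 or more spots, the median SD of the log2 ratio between spots was 0.16, and it was 0.16 as well in the 77 of them with a mean scaled log2 signal of 4 or above. A difference between 2 single spots has 2 times its error at 0.45. The range passed that in 17 members (38.6%) and in 212 other genes (19.7%). The 2 shares do not stand on equal terms, because the cut fits 2 single spots. A range over 3 or 4 probes, more common in members, passes it more easily. Every probe was on 1 spot in all 44 members, but in 927 of the 1078 other genes. Spot error covers the printing and reading of 1 hybridisation, and neither labelling nor culture.

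**Figure D2:**
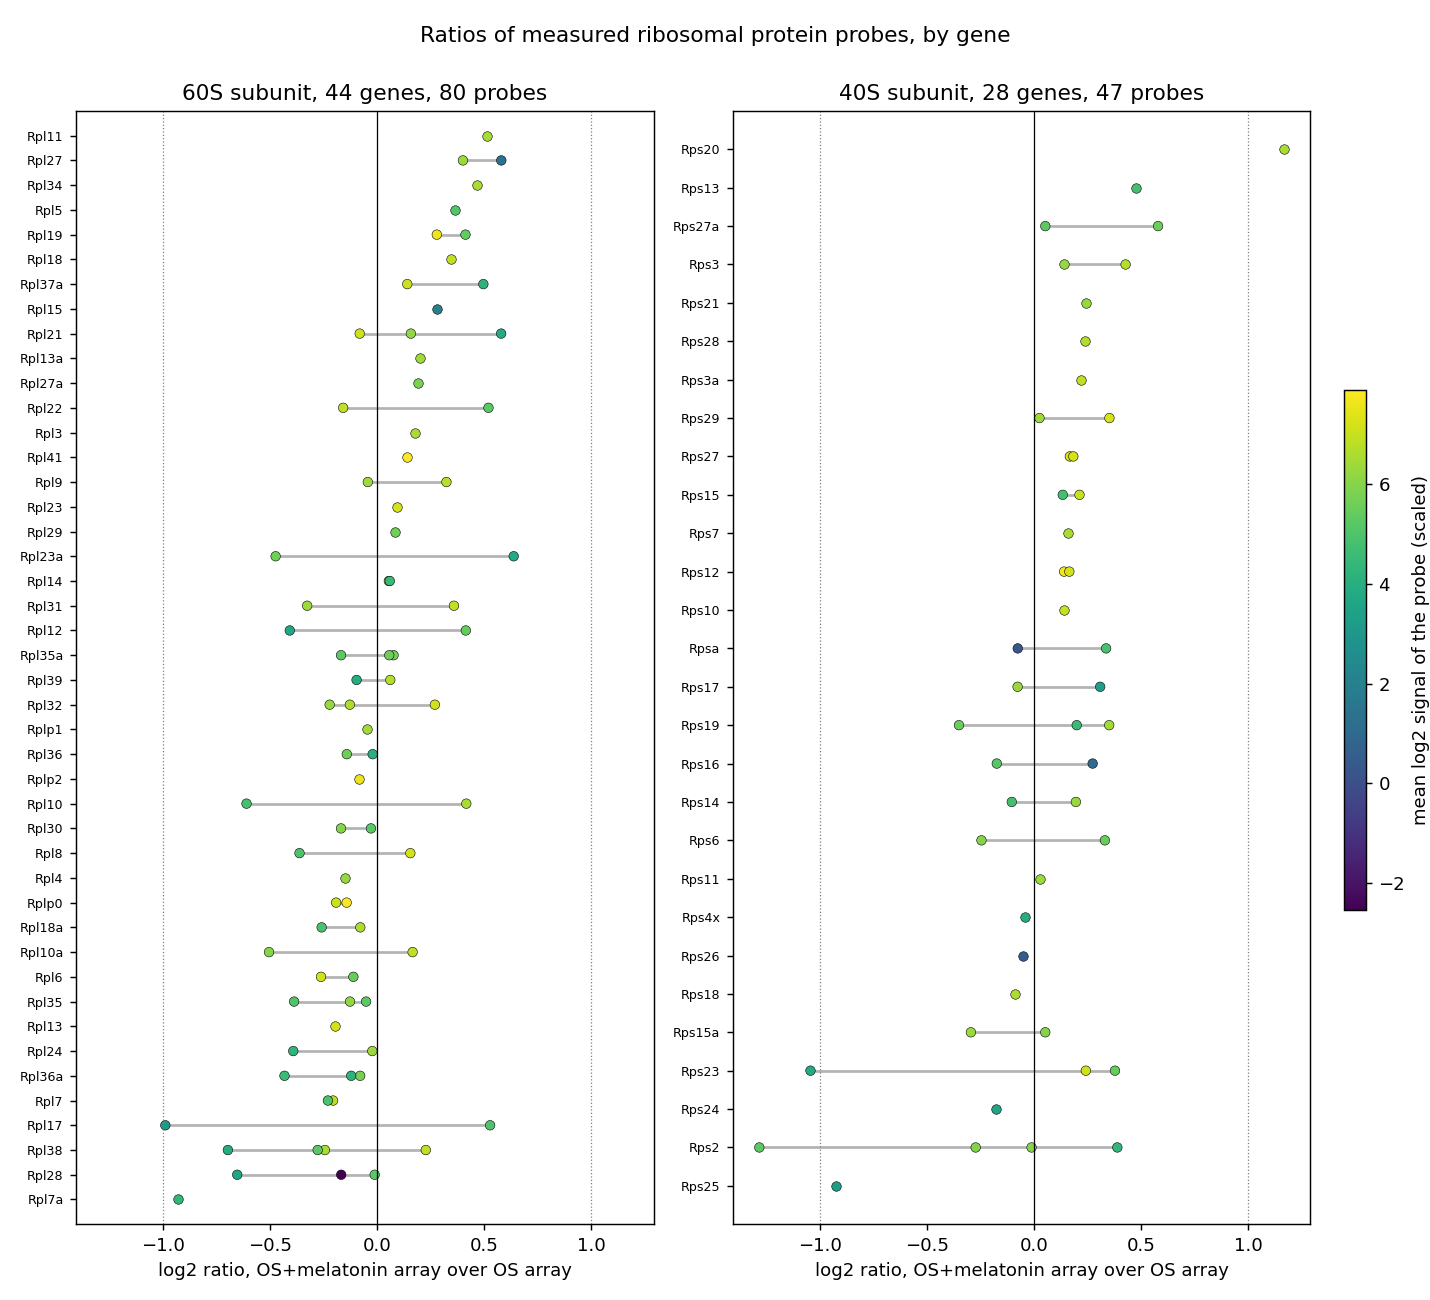
Log2 ratio of the OS+melatonin array over the OS array (horizontal axis) for the measured main member probes of 72 genes (vertical axis, ordered by the gene mean), 60S on the left and 40S on the right. Grey lines join the probes of a gene, colour gives the mean scaled log2 signal and dotted lines mark 2-fold; Rps2, Rpl17, Rps23, Rpl23a and Rpl10 span more than 2-fold.

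Rps2, a 40S protein near the entry of the mRNA channel, had the widest range at 1.67. Its 4 probes read, from OS to melatonin, 26968 to 20534, 28084 to 17844, 24909 to 7853 and 7404 to 7443. The log2 ratios were -0.01, -0.27, -1.28 and 0.39. The third probe alone was far lower with melatonin, 2.44-fold after scaling, while the fourth was higher. The gene mean of -0.30 lies close to the second probe and far from the third.

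Rps23, a 40S protein of the decoding centre, showed the same kind of split. Its probes read 54526 to 49496, 16329 to 16290 and 8384 to 3119 from OS to melatonin, with log2 ratios of 0.24, 0.38 and -1.05. The 2 brighter probes were higher and the dimmest 2.06-fold lower. This probe and the third Rps2 probe were the only main member probes at least 2-fold lower, 2 of 129, where 1.62% of all measured probes were.

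Rpl17, a 60S protein that lines the peptide tunnel, had a range of 1.52 from 2 probes. The brighter read 11092 (OS) and 12267 (melatonin) (0.53), and the dimmer read 5075 and 1960 (-0.99). The first is 1.44-fold higher and the other 1.99-fold lower. The mean of -0.23 would pass as a small change, though neither probe gave it.

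Rpl10, the 60S protein whose joining is a late step of large subunit maturation, had probes at 0.42 (34467 to 35293) and -0.61 (14766 to 7420). Rpl12, at the base of the stalk, had probes at 0.41 (15721 to 16073) and -0.41 (6207 to 3589), which cancel to a mean of 0.00. In both genes the brighter probe was the higher. Rpl23a, near the tunnel exit, where targeting factors dock, went the other way. Its brighter probe stood at -0.48 (24614 to 13591) and its dimmer at 0.64 (4647 to 5548), the only other main member probe at least 1.5-fold higher.

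Among the other genes with 3 or more probes, Rpl38, a 60S protein, gave 0.23, -0.25, -0.28 and -0.70 in order of brightness. Rps19, the gene most often mutated in Diamond-Blackfan anaemia, gave 0.35, -0.35 and 0.20. Rpl21 gave -0.08, 0.16 and 0.58, and Rpl32 gave 0.27, -0.13 and -0.22. The order from bright to dim thus ran downward in Rpl38 and Rpl32 and upward in Rpl21. Rpl35a gave 0.08, 0.06 and -0.17. All probes stayed below 0 in 3 genes: Rpl28 (-0.01, -0.66 and -0.17), Rpl35 (-0.13, -0.05 and -0.39) and Rpl36a (-0.08, -0.43 and -0.12).

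Other members had probes that agreed within the spot error. Rpl14, of the 60S subunit, gave 0.05 and 0.06, from probes that read 25705 and 9321 on the OS array. Rps27, a zinc finger protein of the 40S subunit, gave 0.17 and 0.18. Rpl7, of the 60S subunit, gave -0.21 and -0.23. In these 3 genes, at the main setting, a change of either sign was small and nearly the same by both probes. With normexp background correction the 2 probes stood further apart. They were then at -0.03 and 0.06 (Rpl14), 0.24 and 0.10 (Rps27), and -0.20 and -0.36 (Rpl7).

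Of the 129 measured probes, 2 were at least 1.5-fold higher (1.55%, against 3.99% of all measured probes) and 8 at least 1.5-fold lower (6.20%, against 5.32%). These shares were not matched on signal, and members are the brighter set. The 8 lower member probes belonged to Rps2, Rps23, Rpl17, Rpl7a, Rps25, Rpl38, Rpl28 and Rpl10. Of these 10 probes, 3 were the only measured probe of their gene. For the other 7, 0 had another probe of the same gene past 1.5-fold in the same direction. Over all genes with 2 or more measured probes, 10.8% of probes past 1.5-fold had such a partner (14 of 130), so a lack of agreement at this size was common across the array.

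In the ribosomal proteins the brightest probe of a gene was more often the higher one than in other genes, a difference for which no test was run. The brightest probe had the higher ratio in 26 of the 44 members (59.1%), where the background over all 1124 genes was 46.8% and the share in the other genes 46.4%. The brightest probes had a median log2 ratio of 0.14 and the dimmest -0.04, against 0.04 and 0.07 in the other genes. The median difference, brightest minus dimmest, was 0.11 in the members and -0.03 in the others. The gap in mean log2 signal between the brightest and the dimmest probe was smaller in members, at a median of 1.72, than in other genes, at 2.46. Where both of these probes had a mean scaled log2 signal of 3 or above, members and other genes lay closer together. The brightest was then the higher in 24 of 40 members and in 27 of 52 other genes, with median differences of 0.11 and 0.02. With normexp background correction and no such floor, it was the higher in 27 of 44 members and in 393 of all 1124 genes.

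Across the 44 members, the ratios of the brightest and the dimmest probe had a Pearson correlation of -0.30, against 0.17 across the 1078 other genes. The points share the same 2 arrays and the same scaling, and genes are not independent replicates, so this is a description. Rpl17, Rps23, Rpl10 and Rpl38 lie far out on the side where the brightest probe is higher and the dimmest lower, and Rpl23a on the opposite side.

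**Figure D3:**
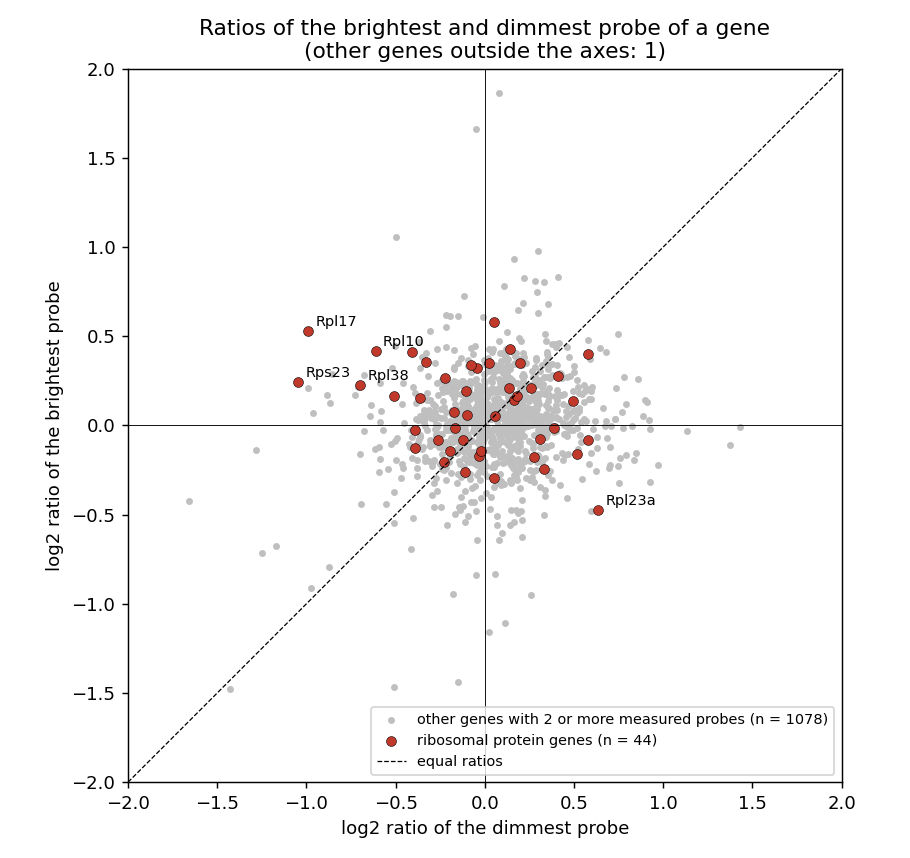
Log2 ratio of the OS+melatonin array over the OS array for the dimmest (horizontal axis) and the brightest (vertical axis) measured probe of each gene with 2 or more, for 44 main members (red) and 1078 other genes (grey). The dashed line marks equal ratios, and 26 of the 44 red points lie above it; 1 other gene lies outside the axes.

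A like split was seen over all main member probes. These include the brightest and dimmest probes compared above, so it is no separate result. The 65 main member probes at or above the members' median signal (5.94 on the scaled log2 scale) had a median log2 ratio of 0.14 with an SD of 0.26, and 40 were above 0. The 64 below it had a median of -0.05 with an SD of 0.44, and 28 were above 0. Of the bright ones 1 passed 1.5-fold, the Rps20 probe, and of the dim ones 9 did, 8 of them lower. Without Rps20, left out after its value had been seen, the median of the bright probes was still 0.14.

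Other probes of the same brightness did not show the lift. The 229 other probes at or above that signal had a median of -0.04, with 104 above 0 (45.4%), and the 2303 from 3 up to it had a median of 0.03. By range of mean signal, the member median was -0.29 from 3 to 4 (12 probes), -0.06 from 4 to 5 (20), -0.01 from 5 to 6 (30), 0.15 from 6 to 7 (42) and 0.14 above 7 (19). The other probes went from 0.04 in the lowest of these ranges to -0.05 in both of the highest. Ratio and signal had a Spearman correlation of 0.18 over the 129 member probes, which is weak. The lowest and the highest of these ranges each hold fewer than 20 member probes, and without them the member median still went from -0.06 to 0.15. Member probes dimmer than 3 did not continue this order. The 5 from 0 to 2 had a median of 0.27, above that of every brighter range, and the 1 below 0 stood at -0.17.

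With normexp background correction the median of the bright member probes was 0.01 and that of the other bright probes -0.08, while the median over all genes moved from 0.04 to 0.09. The bright members were then below the median of all genes and above the other bright probes. No spot was saturated on either array.

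**Figure D4:**
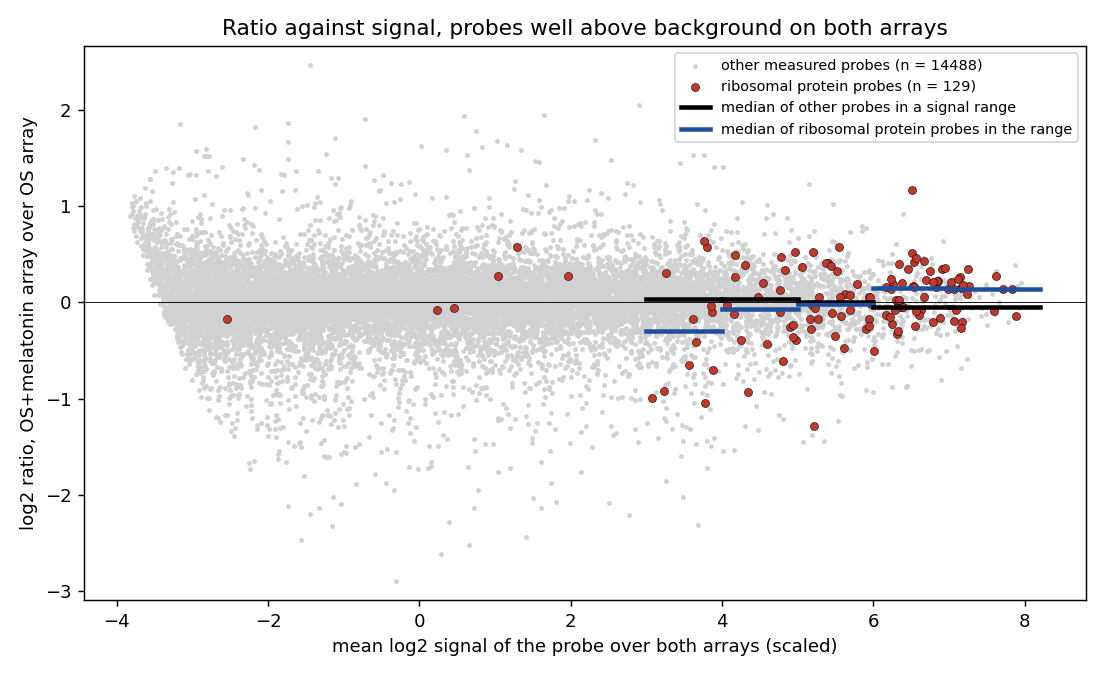
Log2 ratio of the OS+melatonin array over the OS array (vertical axis) against the mean scaled log2 signal of the probe (horizontal axis), for 129 main member probes (red) and the other measured probes (grey). Bars give medians within ranges of signal from 3 upward: the members (blue) go from -0.29 in the lowest range to 0.14 in the highest, and the other probes (black) from 0.04 to -0.05. Probes dimmer than 3 have no bar.

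The number of named copies of a gene was only weakly related to the range between its probes. The Spearman correlation between the range and the number of copies in the RefSeq table was 0.15 over the 44 members. Rps2 combined 36 copies with the widest range, but Rpl7 has 29 and its probes differed by 0.02, and Rps27a has 29 with a range of 0.53. Its probes read 16289 to 18682 and 16339 to 13006 from OS to melatonin, log2 ratios of 0.58 and 0.05. The probe letters are not used here, so which copies a probe can bind was not examined.

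Genes named as copies or relatives of the main members were measured in 6 of 9 cases, with a median log2 ratio of -0.04. Rplp1l1, a copy of the stalk protein Rplp1, read 3925 (OS) and 1872 (melatonin), a log2 ratio of -0.69, while Rplp1 itself stood at -0.05. Rps4y2, a relative of Rps4x, gave -0.79 and 0.11 from 2 probes. Rpl22l1, a paralogue of Rpl22 that can take its place in the ribosome, had 0.39, and its other probe was well above background on the OS array only. Rpl37l1 gave 0.08, 0.59 and 0.46 from 3 probes, Rpl36al1 had -0.12 and Rpl39l1 0.03. Rpl3l, the muscle form of Rpl3, and Rpl27l2 and Rps12l4 were well above background on neither array, as far as these probes show.

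The machinery that builds ribosomes was given by a list of 82 genes, of which 68 were on the array and 65 measured. Their median log2 ratio was 0.09, and 41 were above 0 (63.1%, against 57.6% of all measured genes). At 1.5-fold, 3 were higher and 1 lower, where the backgrounds were 2.03% and 2.64%. Utp3, a nucleolar protein of small subunit assembly, was the highest, at 0.38 (OS) and 1.46 (melatonin) on the scaled log2 scale, a log2 ratio of 1.09 or 2.13-fold. It was read by 1 spot.

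The list of chaperones of single ribosomal proteins, which also holds export and assembly factors, lay on both sides. Pdcd2, the chaperone of Rps2, stood at 0.60, and Sdad1, a nucleolar protein of 60S export, at 0.59, while Ltv1, a factor of late 40S assembly that binds Rps3, stood at -0.61. Tsr2, the chaperone of Rps26, had 0.34, and Pdcd2l, a relative of Pdcd2, had -0.38. The 6 measured genes of this group had a median of 0.34. The sixth, Nap1l1, had 0.34, and 4 of the 6 were above 0. Each of the 6 was read by 1 spot.

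The larger steps had medians closer to 0 than the chaperone list. The 13 measured genes of RNA polymerase I and rRNA processing had a median of 0.02, from -0.36 (Dkc1, the pseudouridine synthase dyskerin) to 0.32 (Ncl, nucleolin). The 23 of large subunit assembly had 0.11, from -0.55 (Eif6, which keeps free 60S subunits from joining) to 0.45 (Gtpbp4, a nucleolar GTPase). The 16 of small subunit assembly had 0.08, with 5 of them below 0, from -0.23 (Riok3, a kinase) to 1.09 (Utp3). The 4 genes of TOP mRNA binding and ribosome rescue had a median of 0.00. The ribosomal proteins and their assembly factors thus both had medians within 0.1 of 0 when the probes of a gene were averaged. By the brightest probe of each gene the medians were 0.08 for the assembly list and 0.14 for the main members, so their order turned with the way probes were combined.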

How the data were processed

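Each of 2 one-colour arrays read Cy3-labelled RNA, 1 array per group. Per the file headers, intensity values were extracted with Agilent Feature Extraction 11.0.1.1 (design 028282, annotation build rn4); the processed intensity was background-subtracted and spatially detrended, with no normalization between arrays. Flags per spot were used as deposited. The authors' deposited table holds log2 values; their normalization is not stated in any source used here. It followed log2 of the scanner signal (Pearson correlation 0.9997 for OS, 0.999 for melatonin), with medians of 5.11 in both columns, and served as an alternative.

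Spots flagged as outliers on either array (937 of 42877 non-control spots) were dropped, at a cost of 8 of 30367 probes. The log2 processed signal was set to the 75th percentile of each array (16775 probes were well above background on the OS array, 14700 on the melatonin array), spots of a probe were averaged, and measured probes were averaged per gene. Symbols came from unversioned RefSeq accessions in a table of assembly GRCr8 (18000 of 30359 probes, 59.3%). Of 14626 measured probes and 8231 measured genes, all entered the backgrounds. The brightest and dimmest probes were ranked by mean log2 signal over both arrays.

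With 1 array per group there is no test and no p-value; a gene counts as higher or lower at a stated fold, and precision is limited by having 2 arrays. The steps were tested on simulated data. Named genes were the 8 widest ranges between probes, members past 1.5-fold by gene or probe (at most 12 each way), the 4 brightest and 4 dimmest members, stalk genes, Rpsa, Rps6, paralogues, members with 3 or more probes or above background on 1 array or neither, and pathway genes past 1.5-fold; others were chosen after their values were seen. The members and lists were chosen with earlier results of these data known. Alternatives were quantile, equal-median and loess normalization, normexp (limma 3.58.1, offset 50, on the median spot signal), other filters on dim probes, another detection flag, outlier spots kept, the authors' values, the brightest probe, other folds and paralogues added. Calculations used Python 3.11.15. The values of a few genes are not reported here.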

Additional observations from a re-analysis of the deposited data

How the results depend on the processing

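Of 111 alternative values for 11 results, 105 stayed within 0.1 on the log2 scale for a median or within 1.5 times for a count. This tally includes settings that could hardly move the member results. Filters on dim probes touched few member probes, as 129 of 130 were measured. Equal medians and kept outlier spots shifted the member ratios by a near constant. The count of main members at least 2-fold higher was 0 with normexp and 0 at 3-fold, where it was 1 (Rps20) otherwise. The count at least 2-fold lower was 2 with normexp (Rpl7a and Rps25) and 2 at 1.5-fold, against 0. The 60S median was 0.087 by the brightest probe of each gene, and the bright probe median 0.0059 with normexp. The main member median ran from -0.0009 to 0.14, the 60S median from -0.04 to 0.09, the 40S median from 0.06 to 0.17, the genes with probes on both sides of 0 from 23 to 25, the range between probes from 0.35 to 0.38, brightest minus dimmest from 0.11 to 0.15, the dim probe median from -0.09 to -0.04 and the assembly list from 0.06 to 0.12. The median over all genes was 0.16 without the filter on dim probes and 0.09 with normexp. No paired analysis was possible because each group holds 1 array. Precision is limited by 1 array per group and by single spots. Member probes below the members' median signal had the wider spread, an SD of 0.44 against 0.26 for the rest. The other probes had an SD of 0.34 from a signal of 3 up to that median and 0.29 from it upward. Member spread did not simply widen with dimness, as the 5 member probes from 0 to 2 had an SD of 0.27.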
